A study of Mus musculus with 8 samples.

Results

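The genes described here are 34 genes of sterol and fatty acid synthesis, chosen by symbol from the table of expression values: 7 of the mevalonate steps, 11 of the steps from squalene to cholesterol, 5 regulators of sterol regulatory element-binding proteins (SREBPs), 2 of sterol transfer and esterification and 9 of the fatty acid steps. They are 34 of 55487 genes listed, and all 34 were among the 11796 genes tested, those with a mean of at least 1 TPM. TPM is a read count divided by transcript length and scaled within a library, so levels can be compared between genes. RNA was sequenced from J774A.1 cells, a mouse macrophage line, after 24 h with LPS at 1 μg/mL, a bacterial endotoxin, alone or together with 1 mM of the bile acid UDCA. Each group had 4 libraries, and both groups received LPS. The series holds no library without LPS, so the comparison is of UDCA within LPS-treated cells. The labels do not say whether the 4 libraries of a group came from separate cultures, so the p-values measure the spread between these samples, which may be technical, and all cells are of 1 line.

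The mevalonate pathway condenses acetyl-CoA units into the isoprenoid farnesyl diphosphate, and squalene synthase commits this intermediate to sterols, which a series of endoplasmic reticulum enzymes turns into cholesterol. Fatty acid synthesis starts from the same acetyl-CoA, which is carboxylated, joined into palmitate, elongated and desaturated. Both sets of genes are classical targets of the SREBP transcription factors, SREBP2 (Srebf2) acting mainly on sterol genes and SREBP1 (Srebf1) mainly on fatty acid genes. SCAP escorts the SREBPs out of the endoplasmic reticulum for cleavage when sterols are low, and the INSIG proteins hold them back. In macrophages the sterol pathway is known for its response to interferon and to LPS, and for supplying the cholesterol that is exported or stored as esters in foam cells.

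Promoters from RefSeq (GRCm38.p6) were found for 27 of the 34 genes; Fads1, Fdft1, Fdps, Scd1, Scd2, Sqle and Stard4 were not matched. The 250 bases before the RefSeq start of 4 genes are printed 5′ to 3′ on the gene's strand. Hmgcs1, whose mRNA rose, was chosen because its window holds the letters TCACNCCAC. Acat2, Tm7sf2 and Fasn are the genes that fell at least 2-fold. Srebf2 and Soat1, also higher, lack those letters and are not printed, so the 4 do not contrast rises with falls. The Tm7sf2 window and the last bases of the Acat2 window lie inside the gene positions given below, which come from another annotation. Capitals mark matches on either strand to the sterol regulatory element letters TCACNCCAC, the E-box CACGTG, the NF-Y box CCAAT and the Sp1 box GGGCGG. In the Fasn promoter the run of capitals nearest the start holds a pair of NF-Y matches on opposite strands that overlap.
Hmgcs1 promoter, chr13:119690101-119690350, plus strand: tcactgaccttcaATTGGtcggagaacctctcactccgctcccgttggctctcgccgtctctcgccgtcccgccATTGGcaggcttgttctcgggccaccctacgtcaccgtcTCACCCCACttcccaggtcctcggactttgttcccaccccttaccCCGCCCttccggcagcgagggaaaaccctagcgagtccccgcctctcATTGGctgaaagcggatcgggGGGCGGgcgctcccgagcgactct
Acat2 promoter, chr17:12960726-12960975, minus strand: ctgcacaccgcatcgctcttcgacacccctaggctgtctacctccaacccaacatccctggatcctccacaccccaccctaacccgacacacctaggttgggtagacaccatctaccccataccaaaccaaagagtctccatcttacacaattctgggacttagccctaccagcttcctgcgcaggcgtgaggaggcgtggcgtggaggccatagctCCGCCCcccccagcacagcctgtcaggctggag
Tm7sf2 promoter, chr19:6067851-6068100, minus strand: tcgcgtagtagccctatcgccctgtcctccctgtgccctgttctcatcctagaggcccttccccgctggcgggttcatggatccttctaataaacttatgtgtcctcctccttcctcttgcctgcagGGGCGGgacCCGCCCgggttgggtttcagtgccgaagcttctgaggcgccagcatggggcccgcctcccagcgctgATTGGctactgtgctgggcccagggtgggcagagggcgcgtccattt
Fasn promoter, chr11:120824548-120824797, minus strand: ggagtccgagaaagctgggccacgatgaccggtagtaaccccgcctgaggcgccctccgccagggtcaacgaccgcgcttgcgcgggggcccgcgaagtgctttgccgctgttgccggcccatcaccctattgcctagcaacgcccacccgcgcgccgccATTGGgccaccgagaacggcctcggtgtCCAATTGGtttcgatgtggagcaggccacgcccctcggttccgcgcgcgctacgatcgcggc
Hmgcs1 was the 1 gene of the 27 (3.70%) with the letters TCACNCCAC in this window, 137 bases before the start, against 1.05% of all 32851 RefSeq promoters and 1.21% of the 8791 tested genes with a promoter. The NF-Y letters were found for 21 of the 27 genes (77.8%), against 33.8% of all promoters and 41.4% of tested genes. The Sp1 letters were found for 22 (81.5%), against 32.7% and 64.1%. The E-box was found for Hsd17b7, Sc5d, Dhcr7, Insig1 and Scap, 5 of the 27 genes (18.5%), against 6.02% of all promoters and 10.3% of tested genes. By step, the NF-Y letters stood in the promoters of 5 of 6 matched mevalonate genes, 9 of 9 squalene to cholesterol genes and 2 of 6 fatty acid genes. A gene with several RefSeq starts was counted once if any of them held the letters. A match of letters is a description of the window and not evidence that a factor binds there.

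Under UDCA the sterol and fatty acid genes did not move in 1 direction. On log2(TPM + 1), a scale on which changes at low TPM come out too small, 12 of the 34 genes were higher and 10 lower at an FDR under 0.05 (limma, which fits each gene and shares variance information across genes, with Benjamini-Hochberg adjustment over all 11796 genes), and 12 did not pass. Of all genes tested, 40.2% were higher and 32.3% lower by this rule, so the shares of these genes, 35.3% and 29.4%, lay slightly below those of the whole table. Past FDR 0.05 and 2-fold, 0 of the 34 were up and 3, Acat2, Tm7sf2 and Fasn, were down, against 8.71% of all genes up and 8.44% down. Groups were fully separate for 17 of the 34 genes, 9 higher (26.5%) and 8 lower (23.5%) with UDCA, where 37.0% of all genes tested were higher without overlap and 29.9% lower. The median log2 fold change was 0.03 over the 34 genes and 0.08 over all genes tested. In bulk RNA, fewer cells of a kind and less RNA per cell cannot be told apart.

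**Figure D1:**
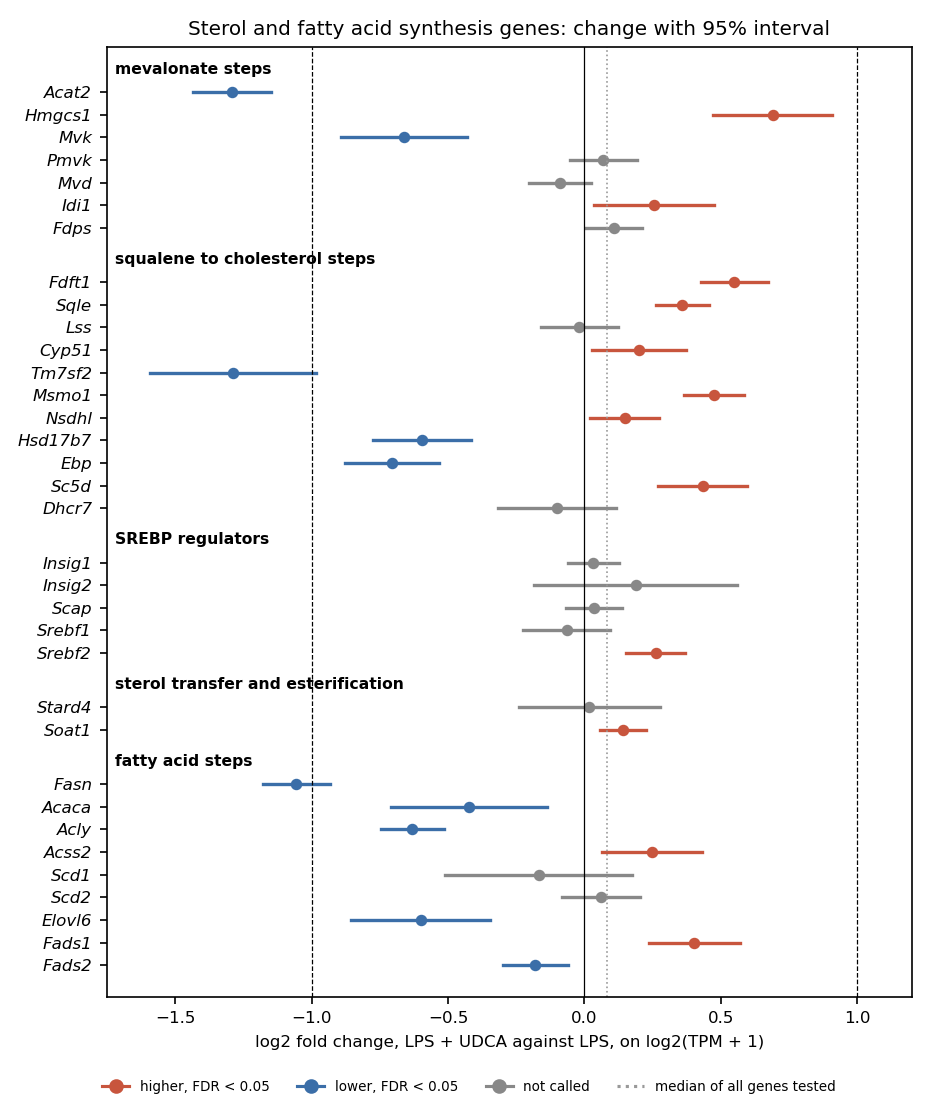
The log2 fold change of LPS + UDCA against LPS (x axis, on log2(TPM + 1)) for each of the 34 genes (y axis, in pathway order) with its 95% interval from limma, coloured by the call at FDR under 0.05; dashed lines mark a 2-fold change. Rises, falls and genes not called are mixed along the sterol pathway, with Acat2 (-1.29) and Tm7sf2 (-1.29) farthest to the left and Hmgcs1 (0.69) farthest to the right.

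**Figure D2:**
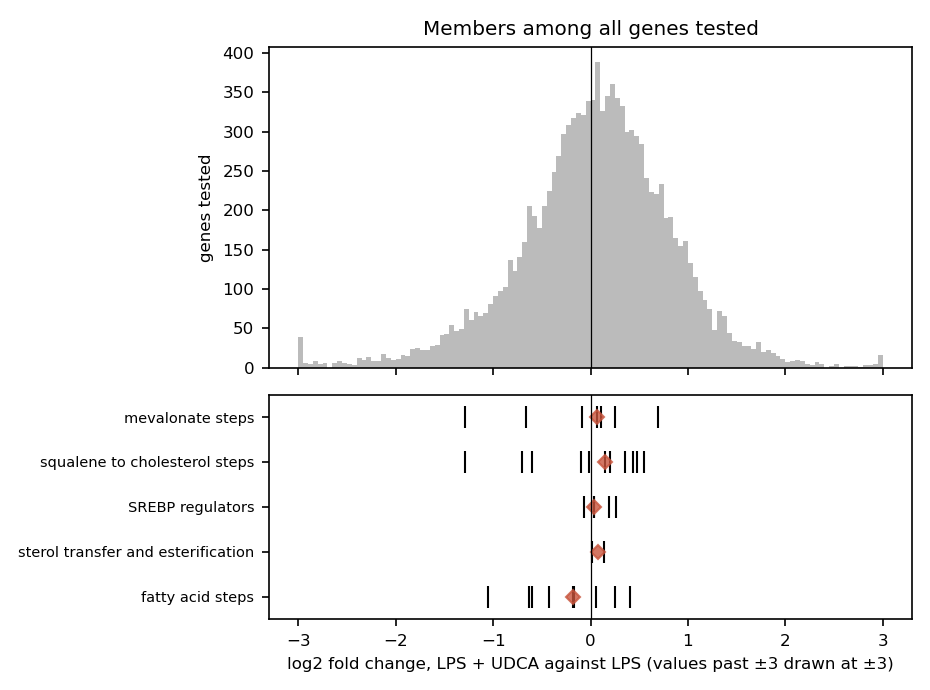
The histogram shows the log2 fold changes of all 11796 genes tested (x axis, on log2(TPM + 1); y axis, number of genes), and the strips under it show each gene as a tick and each group's median as a diamond. The medians lie between -0.18 (fatty acid steps) and 0.15 (squalene to cholesterol steps), near the centre of the histogram.

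Whole-table values that touch these results were as follows. TPM keeps no depth, so the number of reads behind each value is unknown, and the TPM summed to between 973190 and 977485 in LPS libraries and between 958918 and 962737 in LPS + UDCA libraries. Of 9 macrophage markers, 4 were higher and 4 lower with UDCA, beside 40.2% and 32.3% of all genes tested. The remaining marker, Mertk, was listed at 0 in every library. Past 2-fold, 2 were up and 4 down, beside 8.71% and 8.44% of all genes tested. Log2 fold changes ran from 1.48 (Fcgr1) to -2.91 (Itgam). The summed level of the macrophage markers fell from between 3100 and 3258 TPM to between 1221 and 1343 TPM, mostly through Lyz2, which encodes lysozyme (log2 fold change -2.19). Of 10 genes taken as markers of other cell types, S100a8 was detected at 19.2 ± 1.603 TPM with LPS and 4.52 ± 3.04 TPM with UDCA (SD, n = 4). The other 9 did not exceed 0.95 TPM in any library. Whether the S100a8 RNA came from the J774A.1 cells or from other cells was not tested. The part of these differences in the results was not tested.

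The first steps of the mevalonate pathway moved in opposite directions. Acat2 encodes the cytosolic acetyl-CoA acetyltransferase that makes acetoacetyl-CoA, and lies on chromosome 17 from 12942890 to 12960747 of GRCm38. It had 36.1, 36.0, 37.6 and 35.5 TPM in LPS replicates 1 to 4 and 14.7, 15.9, 13.7 and 13.0 TPM in LPS + UDCA replicates 1 to 4. Every UDCA library lay far below every LPS library, and the log2 fold change was -1.29 (95% interval -1.44 to -1.15, limma adjusted p = 1.94e-07; exact 2-sided permutation test p = 0.029, the smallest p the design allows). Of the 31-base words of Acat2 transcripts, 43.7% also occur in its neighbour Acat3, which was listed at 0.195 ± 0.137 TPM with LPS and 0.780 ± 0.550 TPM with UDCA. Hmgcs1, the cytosolic HMG-CoA synthase of the next step, on chromosome 13 from 119690379 to 119708260, had 18.0, 15.3, 14.1 and 16.4 TPM with LPS and 22.4, 27.7, 26.1 and 29.4 TPM with UDCA. All UDCA libraries were higher, and the log2 fold change of 0.69 (95% interval 0.47 to 0.91, limma adjusted p = 0.000151; exact permutation p = 0.029) was the highest of the 34 genes. The ratio of Hmgcs1 to Acat2 TPM went from 0.441 ± 0.0526 to 1.86 ± 0.311 (SD, n = 4), from between 0.375 and 0.499 in the LPS libraries to between 1.53 and 2.27 with UDCA.

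Among the later mevalonate genes, Mvk, the mevalonate kinase, fell from 22.6 ± 1.99 to 14.0 ± 2.15 TPM (log2 fold change -0.66, limma adjusted p = 3e-04), with no overlap between the groups. The kinase of the following step, Pmvk, had 51.1 ± 2.91 TPM with LPS and 53.7 ± 2.68 TPM with UDCA, and its change of 0.07 on the log2 scale had a 95% interval of -0.05 to 0.19. For Mvd, the decarboxylase that yields isopentenyl diphosphate, the change was -0.09 (95% interval -0.20 to 0.03). Neither passed the test, though Mvd did, as lower, without LPS + UDCA replicate 2 (adjusted p = 0.0447) and with median-of-ratios or upper quartile scaling (0.0062 and 0.0389). Idi1, the isomerase of isopentenyl diphosphate, rose from 18.4 ± 1.34 to 22.3 ± 3.11 TPM (log2 fold change 0.25, limma adjusted p = 0.039), with libraries of the groups overlapping. Its call was lost without LPS replicate 1, 2 or 3 or without LPS + UDCA replicate 3 or 4, where the adjusted p lay between 0.0737 and 0.0979. Fdps, which makes farnesyl diphosphate, was by far the most abundant of the 34 genes in LPS libraries, with 22.8% of their summed TPM. It had 466.9 ± 4.01 TPM with LPS and 504.2 ± 34.6 TPM with UDCA, and though every UDCA library was above every LPS library, it missed the threshold (log2 fold change 0.11, limma adjusted p = 0.0588). Without LPS + UDCA replicate 3 or 4 it passed, at 0.0405 and 0.026, as it did with libraries rescaled to the same TPM sum (0.0265) or quantile normalization (0.000518). Gm43738, which overlaps Fdps on the same strand and shares much of its sequence, fell from 11.4 ± 1.38 to 5.38 ± 0.577 TPM. Over the 7 mevalonate genes, 2 were higher (28.6%), 2 lower (28.6%) and 3 did not pass, beside 40.2% and 32.3% of all genes tested. Their median log2 fold change of 0.07 was 0.0331 without LPS replicate 4, -0.0083 with median-of-ratios scaling and -0.0892 without the genes that could share reads, so its direction was not stable. The summed level was 669 ± 5.78 TPM with LPS and 689 ± 39.6 TPM with UDCA.

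The enzymes at the head of the squalene branch rose. Fdft1 encodes squalene synthase and lies on chromosome 14 from 63145150 to 63179578. It had 33.4, 31.4, 35.4 and 32.5 TPM with LPS and 50.3, 52.0, 47.1 and 46.5 TPM with UDCA. The groups were well apart, with a log2 fold change of 0.55 (95% interval 0.43 to 0.67, limma adjusted p = 1.54e-05; exact permutation p = 0.029), although Fdft1 overlaps the lysosomal protease gene Ctsb on the opposite strand and the strand setting of the counting is not given in the sources used here. Sqle, the squalene epoxidase that carries out the first oxygenation, rose from 37.7 ± 1.28 to 48.6 ± 1.44 TPM (log2 fold change 0.36, limma adjusted p = 5.09e-05), without overlap. Lss, which closes the ring to lanosterol, had 27.9 ± 1.59 and 27.6 ± 1.96 TPM, a log2 difference of -0.02 (95% interval -0.16 to 0.12).

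The demethylation steps after lanosterol held both rises and falls. Tm7sf2 encodes a sterol C14 reductase and lies on chromosome 19 from 6062821 to 6068373. It had 15.3, 10.3, 10.8 and 14.2 TPM in the LPS libraries and 3.83, 4.75, 5.08 and 4.49 TPM with UDCA. The LPS libraries were spread more widely, yet all stood above every UDCA library, and the log2 fold change was -1.29 (95% interval -1.59 to -0.98, limma adjusted p = 2.24e-05; exact permutation p = 0.029). Of the 31-base words of Tm7sf2 transcripts, 10.7% also occur in Vps51, whose exons overlap Tm7sf2 on the same strand. Vps51 went the other way, from 31.8 ± 1.02 to 44.7 ± 2.54 TPM (log2 fold change 0.48, limma adjusted p = 2.5e-05). Msmo1, the C4 methyl sterol oxidase, rose from 54.8 ± 3.29 to 76.5 ± 1.92 TPM (log2 fold change 0.48, limma adjusted p = 1.93e-05), without overlap. Hsd17b7, the ketoreductase that acts with it, fell from 8.92 ± 0.584 to 5.56 ± 0.510 TPM (log2 fold change -0.60, limma adjusted p = 0.00011). Cyp51, the lanosterol 14-demethylase, and Nsdhl, the C4 decarboxylating dehydrogenase, were higher by smaller amounts, 0.20 and 0.15 on the log2 scale (limma adjusted p = 0.0398 and 0.038), with overlapping groups. The calls of both were lost in 6 of the 8 fits that left out a library, at adjusted p between 0.0594 and 0.106 for Cyp51 (all but LPS replicate 3 and LPS + UDCA replicate 1) and between 0.0613 and 0.104 for Nsdhl (all but LPS replicate 4 and LPS + UDCA replicate 3).

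At the end of the pathway Ebp, the sterol isomerase, fell from 33.98 ± 3.14 to 20.4 ± 1.49 TPM (log2 fold change -0.70, limma adjusted p = 2.88e-05), while Sc5d, the desaturase of the step after it, rose from 32.1 ± 2.30 to 43.7 ± 3.65 TPM (log2 fold change 0.43, limma adjusted p = 0.000471). Neither overlapped between the groups. Dhcr7, the reductase of 7-dehydrocholesterol, had 18.4 ± 2.01 and 17.1 ± 1.87 TPM, a log2 difference of -0.10 (95% interval -0.32 to 0.12) that did not pass. Over the 11 squalene to cholesterol genes, 6 were higher (54.5%), 3 lower (27.3%) and 2 not called, where 40.2% of all genes tested were higher and 32.3% lower. Their median log2 fold change was 0.15 (0.0723 with median-of-ratios scaling), and the summed level was 318 ± 10.6 TPM with LPS and 360 ± 12.6 TPM with UDCA. The library sums did not overlap, between 309 and 333 TPM with LPS and between 349 and 376 TPM with UDCA.

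**Figure D3:**
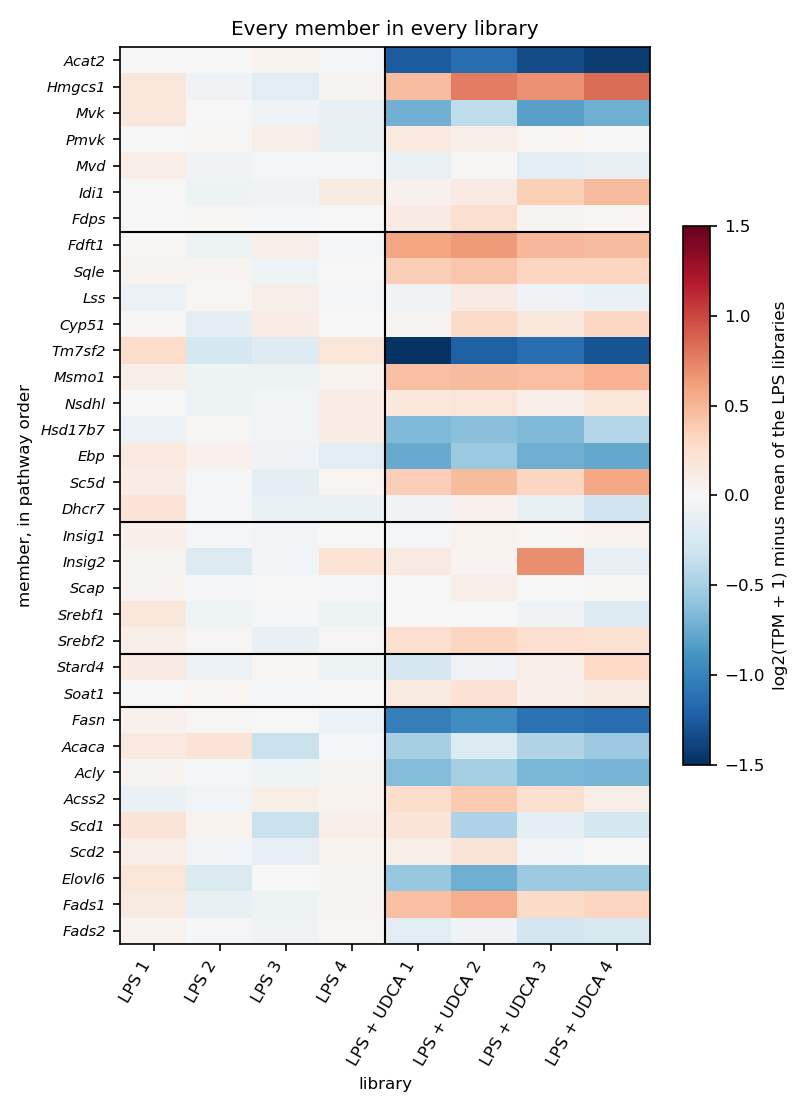
The difference of log2(TPM + 1) from the mean of the LPS libraries (colour scale) for each of the 34 genes (y axis, in pathway order, with lines between the groups of genes) in each of the 8 libraries (x axis). Acat2, Tm7sf2 and Fasn are among the darkest in all 4 UDCA libraries, and Insig2 stands out in LPS + UDCA replicate 3.

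Of the regulators, Srebf2 alone passed the test. Srebf2, the gene of SREBP2, lies on chromosome 15 from 82147181 to 82205379 and had 69.4, 65.9, 60.5 and 65.9 TPM with LPS and 77.7, 82.0, 77.7 and 76.6 TPM with UDCA. All UDCA libraries were higher, with a log2 fold change of 0.26 (95% interval 0.15 to 0.37, limma adjusted p = 0.000881; exact permutation p = 0.029). Srebf1, the gene of SREBP1, had 46.4, 39.4, 40.2 and 38.9 TPM with LPS and 40.9, 41.3, 39.6 and 35.5 TPM with UDCA, so the groups overlapped. Its change was -0.06 on the log2 scale (95% interval -0.22 to 0.10, limma adjusted p = 0.431; exact permutation p = 0.543). The ratio of Srebf2 to Srebf1 TPM was 1.59 ± 0.107 with LPS and 2.001 ± 0.109 with UDCA, between 1.495 and 1.695 against between 1.90 and 2.16 by library.

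The escort Scap had 23.1 ± 0.494 and 23.7 ± 0.808 TPM (log2 difference 0.03, 95% interval -0.07 to 0.14), and the retention protein Insig1, itself an SREBP target, had 56.6 ± 2.19 and 57.9 ± 1.44 TPM (log2 difference 0.03, 95% interval -0.06 to 0.13). Neither passed the test. Insig2 was at 23.2 ± 2.80 TPM with LPS and 27.1 ± 7.43 TPM with UDCA, where LPS + UDCA replicate 3 had 37.9 TPM and the other 3 libraries between 21.2 and 25.5 TPM. The 95% interval of its difference, -0.18 to 0.56, was the widest of the 5 regulators, and without that library the log2 difference was 0.02. Of the 5 regulators 1 was higher (20%, beside 40.2% of all genes tested), 0 were lower (beside 32.3%) and 4 did not pass. Their median of 0.03 was -0.0418 with median-of-ratios scaling and 0.19 without the genes that could share reads.

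Stard4 and Soat1 act on the product. Stard4, a carrier of cholesterol between membranes, had 9.93, 8.42, 9.23 and 8.50 TPM with LPS and 7.43, 8.62, 9.59 and 11.3 TPM with UDCA. The UDCA libraries lay on both sides of the LPS libraries, and the log2 difference was 0.02 (95% interval -0.24 to 0.28, limma adjusted p = 0.891; exact permutation p = 0.886). Soat1, the acyltransferase that makes cholesteryl esters in macrophages, had 180.1, 182.5, 174.6 and 178.4 TPM with LPS and 196.8, 208.6, 188.4 and 196.5 TPM with UDCA. Every UDCA library was higher, by a small margin (log2 fold change 0.14, 95% interval 0.06 to 0.23, limma adjusted p = 0.0068; exact permutation p = 0.029). With median-of-ratios scaling the Soat1 change was 0.06 and its call was lost (adjusted p = 0.129).

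**Figure D4:**
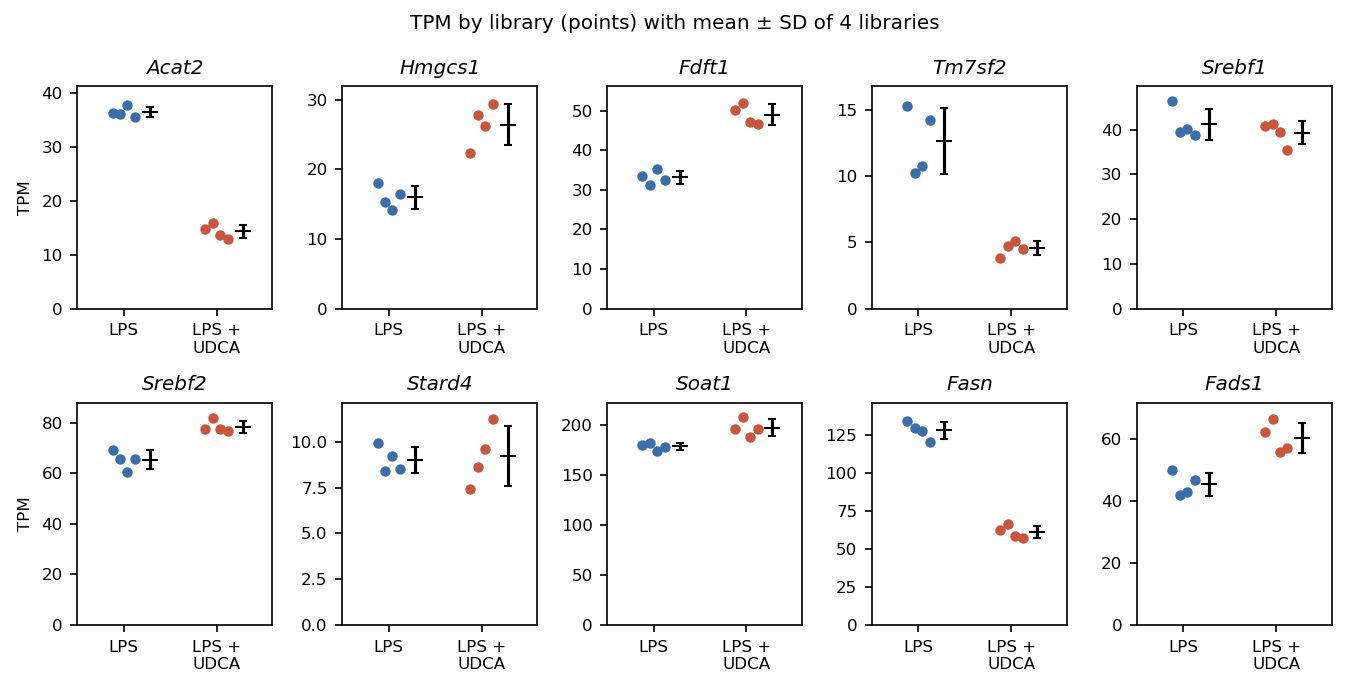
TPM (y axis, from 0) of the genes past 2-fold and of the highest and lowest gene of each group of genes, in the 4 LPS and the 4 LPS + UDCA libraries (points), with the mean and SD beside them. The groups are separate for every gene shown except Srebf1 and Stard4.

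In the fatty acid steps, the enzymes that make palmitate fell. Fasn, the fatty acid synthase, on chromosome 11 from 120805846 to 120824547, had 133.9, 129.5, 127.4 and 120.2 TPM with LPS and 62.2, 66.3, 58.2 and 57.4 TPM with UDCA. The highest UDCA library was far below the lowest LPS library, and the log2 fold change was -1.06 (95% interval -1.18 to -0.93, limma adjusted p = 2.65e-07; exact permutation p = 0.029). Under quantile normalization the change was -0.99, just short of 2-fold. Acly, the ATP citrate lyase that supplies cytosolic acetyl-CoA, fell from 132.2 ± 4.70 to 85.1 ± 5.58 TPM (log2 fold change -0.63, limma adjusted p = 4.11e-06), without overlap. Acaca, the acetyl-CoA carboxylase, fell from 14.8 ± 2.51 to 10.7 ± 1.30 TPM (log2 fold change -0.42, limma adjusted p = 0.0133), with overlap through LPS replicate 3 at 11.4 TPM and LPS + UDCA replicate 2 at 12.6 TPM. Acss2, which makes acetyl-CoA from acetate, was higher, at 7.95 ± 0.513 and 9.64 ± 0.926 TPM (log2 fold change 0.25, limma adjusted p = 0.0205). That call was lost without LPS replicate 1 or 2 or LPS + UDCA replicate 2, at adjusted p between 0.0506 and 0.0539.

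The elongase and desaturase genes were mixed. Elovl6, the elongase of palmitate, was the least abundant of the 34 and fell from 3.26 ± 0.470 to 1.80 ± 0.168 TPM (log2 fold change -0.60, limma adjusted p = 0.00099), without overlap. The stearoyl-CoA desaturases Scd1 and Scd2 did not pass, with log2 differences of -0.17 (95% interval -0.51 to 0.17) and 0.06 (95% interval -0.08 to 0.20). Scd2 was the more abundant in every library, at 10.1 ± 1.14 times the TPM of Scd1 with LPS and 12.1 ± 2.89 times with UDCA, and these ratios overlapped. Fads1, the delta-5 desaturase of polyunsaturated fatty acids, had 49.9, 41.8, 43.0 and 46.7 TPM with LPS and 62.1, 66.4, 55.6 and 57.0 TPM with UDCA. All UDCA libraries were higher, with a log2 fold change of 0.40 (95% interval 0.24 to 0.57, limma adjusted p = 0.000858; exact permutation p = 0.029). Fads2, the delta-6 desaturase, which starts 81142 bases away on chromosome 19, fell from 68.4 ± 2.25 to 60.4 ± 4.13 TPM (log2 fold change -0.18, limma adjusted p = 0.0131), with overlap. The ratio of Fads2 to Fads1 TPM was thus 1.51 ± 0.0782 with LPS and 1.00 ± 0.0198 with UDCA, between 1.42 and 1.61 against between 0.979 and 1.02 by library.

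**Figure D5:**
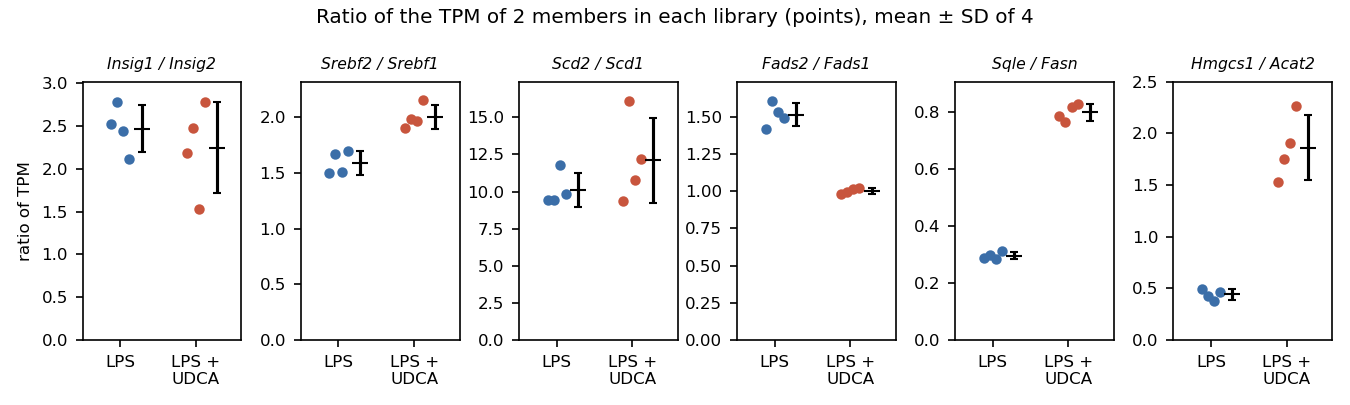
The ratio of the TPM of 2 genes within a library (y axis, from 0) in the 4 LPS and 4 LPS + UDCA libraries (points), with the mean and SD beside them. The ratios of Srebf2 to Srebf1, Fads2 to Fads1, Sqle to Fasn and Hmgcs1 to Acat2 do not overlap between the groups, and those of Insig1 to Insig2 and Scd2 to Scd1 do.

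Set side by side, the sterol and fatty acid steps differed in their counts at an FDR under 0.05. Of the 18 mevalonate and sterol genes, 8 were higher (44.4%), 5 lower (27.8%) and 5 not called, shares close to the 40.2% and 32.3% of all genes tested. Of the 9 fatty acid genes, 2 were higher (22.2%), 5 lower (55.6%) and 2 not called. Without overlap between the groups, 1 fatty acid gene was higher (11.1%) and 3 lower (33.3%). For the sterol genes these counts were 6 (33.3%) and 5 (27.8%), beside 37.0% and 29.9% of all genes tested. By that rule the shares of falls lay near that of all genes. Acaca and Fads2, called lower, had overlapping groups. Past 2-fold, 1 fatty acid and 2 sterol genes were down, beside 8.44% of all genes tested. The median log2 fold change was 0.09 over the sterol genes, beside 0.08 over all genes, and -0.18 over the fatty acid genes. The fatty acid median was -0.28 without LPS replicate 3, -0.29 without LPS + UDCA replicate 1 and -0.41 without the genes that could share reads, which also took the sterol median to -0.01. With median-of-ratios scaling the sterol median was 0.0105. The summed TPM of the sterol genes was 988 ± 15.2 with LPS and 1049 ± 49.7 with UDCA, and that of the fatty acid genes was 665 ± 32.7 and 562 ± 37.1. The fatty acid sums did not overlap, between 627 and 705 TPM in LPS libraries and between 530 and 609 TPM with UDCA, and Fasn and Acly together lost more TPM than the sum did. For 1 pair of genes, Sqle, which rose, and Fasn, which fell, the ratio of TPM went from 0.296 ± 0.0128 to 0.799 ± 0.0295. This pair does not stand for the lists, since Acat2 of the sterol genes fell (-1.29) and Fads1 of the fatty acid genes rose (0.40). No p is given for these lists, since the genes were chosen with results of these data known, and the members of a list are not independent replicates. The level of all 34 genes together was 2050 ± 58.0 TPM with LPS and 2045 ± 94.2 TPM with UDCA.

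Other genes around these pathways were described by list. Of 11 genes that cleave SREBPs or degrade sterol-regulated proteins, 8 were higher, 2 lower and 1 not called, with 2 up and 0 down past 2-fold and a median log2 fold change of 0.50, where 40.2% of all genes tested were higher, 32.3% lower, 8.71% up and 8.44% down past 2-fold and the median was 0.08. Ubxn4, a factor of endoplasmic reticulum-associated degradation, had the highest change, from 27.2 ± 3.88 to 97.7 ± 15.7 TPM (log2 fold change 1.81, limma adjusted p = 1.64e-06), and Rnf145, a sterol-responsive ubiquitin ligase, the lowest, from 39.3 ± 2.15 to 21.9 ± 1.43 TPM (-0.81). Of the 9 late-step and accessory sterol genes, 2 were higher and 4 lower, beside 40.2% and 32.3% of all genes tested. Their median log2 fold change was -0.24, and Pgrmc1, a partner of cytochrome P450 enzymes, had the highest (0.83). The branch that leads from farnesyl diphosphate to prenylated proteins, dolichol and ubiquinone had 10 of 11 genes tested. Of these, 3 were higher and 4 lower, beside 40.2% and 32.3% of all genes tested, with a median of -0.07. Changes ran from Pggt1b (1.02), a protein prenyltransferase subunit, to Pdss1 (-0.86), of ubiquinone side chain synthesis.

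Among genes of fatty acid supply, elongation and glycerolipid entry, 15 of 20 were tested. Of these, 6 were higher and 5 lower, close to the 40.2% and 32.3% of all genes tested. Past 2-fold, 2 were up and 0 down, beside 8.71% and 8.44% of all genes, and the median was -0.10. Me1, the cytosolic malic enzyme that makes NADPH, was highest, from 25.0 ± 1.24 to 52.0 ± 2.34 TPM (log2 fold change 1.03, limma adjusted p = 2.1e-07), and Tecr, the reductase of the elongation cycle, lowest, from 259.5 ± 9.79 to 166.7 ± 13.9 TPM (-0.64). Of the genes of sterol exit, storage and lysosomal release, 8 of 9 were tested. Of these, 4 were higher and 3 lower, beside 40.2% and 32.3% of all genes tested. Nr1h3, the gene of the oxysterol receptor LXRα, rose from 6.34 ± 1.00 to 14.1 ± 1.53 TPM (log2 fold change 1.05, limma adjusted p = 3.29e-05), and Abcg1, a cholesterol exporter, fell from 11.7 ± 0.212 to 3.48 ± 0.731 TPM (log2 fold change -1.52, limma adjusted p = 2.33e-06). Abca1, the other classical exporter, did not exceed 0.32 TPM in any library and was not tested.

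Reads of 15 of the 34 genes could be shared with other annotated genes, through overlapping exons (12 genes) or at least 5% of 31-base words held in common (9 genes). These are Acat2, Hmgcs1, Idi1, Fdps, Fdft1, Lss, Cyp51, Tm7sf2, Scap, Srebf1, Acaca, Acss2, Scd1, Scd2 and Elovl6, and their values carry that uncertainty. Of the partners by shared words, those of Fdft1 (Gm6781) and Acaca (Gm5182) were listed at 0 in all 8 libraries.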

How the data were processed

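RNA from J774A.1 macrophages given LPS or LPS + UDCA was sequenced by the authors (4 libraries per group, Illumina TruSeq RNA kit). They deposited 1 value per gene and library, kept to 2 decimals and read here as TPM from the column sums, so the depth is unknown. The submitters' processing notes name Bowtie 0.12.2 and the builds mm10 and GRCm38; the counting program and its strand setting are not given in the sources used here. Values were transformed to log2(TPM + 1), and the 11796 genes averaging 1 TPM or more were fitted in limma 3.58.1 (R 4.3.3; lmFit, eBayes with a trend), with Benjamini-Hochberg adjustment. Calls were FDR under 0.05, with or without a 2-fold change. For genes shown by library, an exact 2-sided permutation test over 70 arrangements was added. These genes were picked by their change in the same libraries. A permutation p of 0.029 restates that their groups did not overlap and is not separate support. The method was tested on simulated data with changes of at least 2-fold in a small part of the genes. Smaller changes, or changes in most genes, were not covered.

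All 34 genes are named. Values by library are given for those past 2-fold and for the highest and lowest log2 fold change of each group, and of each further pathway list the highest and lowest genes are named, with others added after their values were seen. The lowest gene of 1 such list is not reported here. Members and lists were chosen with earlier results of these data known. Positions, overlaps and shared 31-base words are from GENCODE M21 (GRCm38). Alternatives covered filter, pseudocount, scaling, variance prior, replicate block and leaving out each library. Figures were drawn with matplotlib 3.10.9.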

Additional observations from a re-analysis of the deposited data

Results flagged for a closer look

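In 4 of the 68 sets of 4 values (34 genes in each of the groups), 1 library stood apart from the other 3 by Dixon's ratio of its gap to the range, with 3.4 such sets given by chance. All 4 were in LPS + UDCA libraries. Hsd17b7 was highest in replicate 4 at 6.32 TPM (ratio 0.832). Ebp was highest in replicate 2 at 22.7 TPM (0.868), as was Scap at 24.9 TPM (0.856). Elovl6 was lowest in replicate 2 at 1.55 TPM (0.865). The calls of Hsd17b7, Ebp and Elovl6 as lower and the absence of a call for Scap held in the fits without these libraries.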

How the results depend on the processing

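Of the 22 genes called, 17 kept the call and its direction in each of the 19 alternative fits in which they were tested, and Idi1, Cyp51, Nsdhl, Soat1 and Acss2 lost it in at least 1. Of the 12 not called, Mvd, Fdps and Scd2 passed in at least 1 and 9 in none. With median-of-ratios scaling, the median of all genes was 0.01 in place of 0.08, and 50% of called genes were higher in place of 55.5%. By this scaling 7 of the 34 genes were higher and 11 lower, beside 4292 higher and 4288 lower of all 11796 genes tested. The medians were then -0.0083 for mevalonate, 0.0723 for squalene to cholesterol, -0.0418 for regulator, -0.26 for fatty acid and 0.0105 for mevalonate and sterol genes together. Of the 19 genes left without the 15 that could share reads, 7 were higher and 6 lower, beside 40.2% and 32.3% of all genes tested. Past 2-fold 1 was lower, beside 8.44% of all genes. The medians were then -0.0892 for mevalonate, 0.19 for regulator, -0.41 for fatty acid and -0.01 for mevalonate and sterol genes together, a construction that removes genes. The sterol median exceeded the fatty acid median by 0.27, by 0.40 without those 15 genes, and by between 0.24 and 0.38 when 1 library was left out. Leaving out 1 library gave medians between 0.0331 and 0.0983 for mevalonate genes (0.0331 without LPS replicate 4) and between -0.29 and -0.16 for fatty acid genes. With the replicate number as a block, 9 genes were higher and 10 lower, beside 4634 and 3737 of all 11796 genes tested. Cyp51, Nsdhl and Acss2 lost their calls in this fit (limma adjusted p = 0.0676, 0.0568 and 0.0509), and no other call changed. Deviations from the group means correlated by -0.035 to 0.15 for the 4 same-numbered pairs and by -0.14 to 0.16 for the 12 others. By these correlations 5 of 8 libraries matched best with their own number, but a pair can count for both of its libraries, and this was not tested. The labels tie no number to a shared culture or day, and pairing was not assumed. Except where given, the cause of these shifts was not tested. TPM without depth limits the low genes most, such as Elovl6.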
